A study of Mus musculus with 6 samples.

Results

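Mamdc2, Pdpn and Penk are 3 genes that belong to no common pathway. Their signal was much higher in macrophages labelled as a knockout of GPS2, a protein of the co-repressor complexes that nuclear receptors recruit. They were selected on that measured difference between wild-type (WT) and GPS2KO cells, 3 of 18820 tested genes, so it is described here without a test. Each gene was measured by 1 probe set with a single platform symbol: 10466712 for Mamdc2 on chromosome 19, 10518147 for Pdpn on chromosome 4 and 10511363 for Penk, also on chromosome 4.

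RNA came from bone marrow-derived macrophages, 3 WT and 3 GPS2KO samples with 1 Affymetrix array each. Both groups were male mice of 12 to 16 weeks, and the marrow cells of both were grown for 7 days in medium with 30% supernatant of L929, a fibroblast line that secretes macrophage growth factor, and were left untreated. The labels describe the GPS2KO cells as a macrophage knockout and give neither a Cre driver nor the deleted exons. They do not say whether each array came from a separate animal, so p-values here reflect the scatter among these arrays alone, and part of it may be technical.

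Pdpn encodes podoplanin, a small mucin-like membrane glycoprotein best known from lymphatic endothelium, fibroblasts of lymphoid tissue and kidney podocytes. It also appears on inflammatory macrophages, and its sialylated O-glycans are bound by the platelet receptor CLEC-2. Penk encodes proenkephalin, which prohormone convertases and a carboxypeptidase cut into the enkephalins, short peptides that act on opioid receptors, and cells of the immune system and fibroblasts make it as well as neurons. Mamdc2 encodes mamcan, a secreted proteoglycan with MAM domains, a fold found in receptors and matrix proteins.

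Of the 3 genes, 1, Pdpn, matched an entry in the RefSeq table of promoters (GRCm38.p6), while Mamdc2 and Penk did not match. The Pdpn window, chr4:143299515-143299814 on the minus strand, runs from 250 bases before the start of the transcript to 50 bases after it. It is shown as the 1 promoter of the 3 genes that the table holds. Capitals mark each match to the motifs named next.
Pdpn: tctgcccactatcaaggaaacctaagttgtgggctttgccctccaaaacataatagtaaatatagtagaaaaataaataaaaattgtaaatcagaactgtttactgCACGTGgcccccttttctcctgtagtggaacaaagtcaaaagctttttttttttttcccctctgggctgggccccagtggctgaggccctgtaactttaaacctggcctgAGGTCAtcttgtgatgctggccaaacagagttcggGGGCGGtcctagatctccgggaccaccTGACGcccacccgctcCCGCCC

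Both strands were searched for 8 motifs. The nuclear receptor half-site AGGTCA occurred 1 time, at positions -34 to -29 from the start, and 16.3% of all 32851 promoter windows of the table held it. The Sp1 box GGGCGG occurred 2 times, after the start and once on each strand (35.7% of windows). The E-box CACGTG (7.15%) and TGACG, the first letters of the cyclic AMP response element (20.8%), occurred 1 time each. No whole match to TGANTCA (AP-1, 7.81% of windows), TGACGTCA (the whole cyclic AMP element, 1.79%), TTCNNNGAA (STAT, 8.3%) or the interferon-stimulated response element (3.44%) was found in this window. The matches did not overlap each other. They describe the sequence only.

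The 6 array medians lay between 5.57 and 5.60. Gps2 itself lay at 10.943, 10.931 and 11.002 on the WT arrays and at 10.289, 10.164 and 10.187 on the GPS2KO arrays, a fall to 59.7% of the WT signal (limma adjusted p = 0.000256). Its groups did not overlap, and the exact 2-sided permutation p of 0.1 is the smallest that 6 arrays allow. The arrays measure RNA, so the loss of GPS2 protein was not tested. Of all tested genes, 2.9% rose and 3.83% fell at an adjusted p under 0.05, 6.72% together. Centring each array on its median changed the split from 545 rises and 720 falls to 460 and 1061. The macrophage genes Adgre1 and Csf1r were bright in both groups, at 12.53 ± 0.04 and 12.60 ± 0.00 and at 12.74 ± 0.03 and 12.78 ± 0.01 (SD, n = 3 each). Mean levels of the 11 tested macrophage markers ran from 5.58 to 13.36.

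Mamdc2 gave log2 intensities of 7.229, 7.228 and 7.343 on WT replicates 1 to 3 and of 9.015, 8.899 and 8.677 on GPS2KO replicates 1 to 3. Every GPS2KO array was above every WT array, and the lowest GPS2KO array exceeded the highest WT array by 1.33. The mean was 7.27 ± 0.07 in WT and 8.86 ± 0.17 in GPS2KO (SD, n = 3 each), a difference of 1.60 or 3.03-fold. Single GPS2KO arrays against the WT mean gave 3.36-fold, 3.1-fold and 2.66-fold, so the GPS2KO arrays were spread more widely than the WT arrays, over 0.338 against 0.115. Over the 9 pairs of a GPS2KO with a WT array, the fold ran from 2.52 to 3.45.

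Pdpn had the smallest pooled SD of the 3 genes. Its log2 intensities were 9.786, 9.793 and 9.925 in WT and 11.134, 11.185 and 11.157 in GPS2KO. The groups were far apart, with a gap of 1.21, while the GPS2KO arrays differed among themselves by at most 0.052. The means were 9.83 ± 0.08 and 11.16 ± 0.03 (SD, n = 3 each), a difference of 1.32 or 2.5-fold, and the 9 pairs ran from 2.31-fold to 2.64-fold. The spread within groups was ordinary for this table: 42.5% of tested genes had a smaller pooled SD than that of Pdpn, 0.059. For Mamdc2, with a pooled SD of 0.130, the share was 90.4%, and for Penk, with 0.180, it was 97.9%.

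The Penk signal lay close to the dim limit in WT. Its log2 intensities were 5.627, 5.792 and 5.545 in WT and 6.949, 7.165 and 6.720 in GPS2KO. Here, too, all GPS2KO arrays lay above all WT arrays, by at least 0.93. The means were 5.65 ± 0.13 and 6.94 ± 0.22 (SD, n = 3 each), a difference of 1.29 or 2.45-fold, with pairs from 1.9-fold to 3.07-fold. The WT mean lay 0.16 above 5.49, the 40th percentile of tested genes, which serves here as the limit of dim signals. Background makes up more of a dim signal and compresses its fold, so the size of the Penk difference is less firm than that of Pdpn, which lay 4.34 above the limit in WT. The table carries no detection calls.

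**Figure D1:**
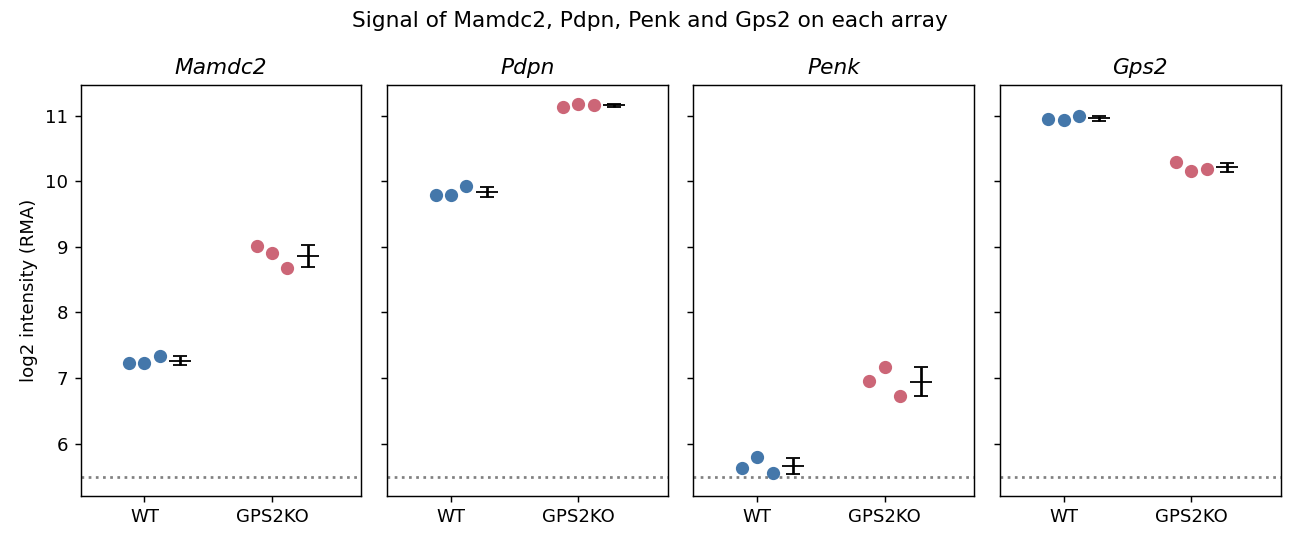
Log2 intensity (y axis) of Mamdc2, Pdpn, Penk and Gps2 on the 3 WT (blue) and 3 GPS2KO (red) arrays, with replicates 1 to 3 from left to right. Bars beside the points give the mean and SD, and the dotted line marks the dim limit of 5.49. The groups do not overlap for any of the 4 genes, and the Pdpn arrays of GPS2KO lie closest together.

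The WT and GPS2KO arrays also did not overlap for 27.1% of all tested genes, and 11.9% of genes were higher in GPS2KO without overlap, so the lack of overlap alone does not set the 3 genes apart. In the order of differences Mamdc2 was 4th, Pdpn 7th and Penk 8th, as their choice fixed. Their nearest places were close: Ccl7, 3rd, differed by 1.61 and Mrgpre, 9th, by 1.28, less than the spread within groups away from Mamdc2 and Penk. The arrays were not ordered alike by the 3 genes. Among GPS2KO arrays, replicate 1 was highest for Mamdc2 but lowest for Pdpn, replicate 2 was highest for Pdpn and Penk, and replicate 3 was lowest for Mamdc2 and Penk. Among WT arrays, replicate 3 was highest for Mamdc2 and Pdpn and lowest for Penk.

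Among the genes of proteins that podoplanin binds or signals through, no rise passed in the fit of all genes. With 2.9% of all genes rising, 0 rises among 15 do not set this list apart. Of 18 such genes 15 were tested, of which 0 rose, 2 fell and 13 did not pass. The share called was 13.3% against 6.72% of all genes, and the median difference 0.03 against -0.01. However, 13 of the 15 were not dim. In the fit without dim genes 1 of these rose and 3 fell, while 1962 of all 11292 genes passed. Whether the list stands apart was not tested. At an unadjusted p under 0.05, 3 were higher, and with a variance trend in limma 2 rose. The falls were those of Cd82 and Ezr. Cd82, a tetraspanin of the cell membrane, lay at 11.648, 11.620 and 11.559 in WT and at 11.126, 11.126 and 11.115 in GPS2KO, a fall of 0.49 on the log2 scale (SE 0.0396, adjusted p = 0.000563). Ezr, which encodes ezrin, a linker of membrane proteins such as podoplanin to actin, fell by 0.32 (SE 0.0374, adjusted p = 0.00293). The related linkers differed little, with Msn at 12.79 ± 0.01 and 12.79 ± 0.02 and Rdx at 10.66 ± 0.10 and 10.75 ± 0.03.

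Clec1b, which encodes the receptor CLEC-2, was dim in both groups, at 4.64 ± 0.28 and 4.65 ± 0.16 (difference 0.01, adjusted p = 0.982). Cd44, a hyaluronan receptor that associates with podoplanin, differed by 0.06 (10.72 ± 0.04 and 10.77 ± 0.02, adjusted p = 0.472). Lgals8, which encodes galectin-8, a binder of podoplanin glycans, differed by 0.11 without overlap of the groups (adjusted p = 0.178), and passed only with a variance trend (adjusted p = 0.0466). Ccl21a, Ccl21b and Rock2 were not analysed here.

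CLEC-2 recognises podoplanin through mucin-type O-glycans, and 21 of 22 enzymes of their synthesis were tested. Of these, 0 rose, 2 fell and 19 did not pass (9.52% called against 6.72% of all genes), with a median difference of 0.00. The falls were small: Gcnt4, a branching enzyme, fell by 0.28 (adjusted p = 0.0225) and St3gal1, which adds sialic acid to the core, by 0.19 (adjusted p = 0.032). The first call ended without WT replicate 1 or 2 or GPS2KO replicate 2 or 3 (adjusted p up to 0.0756). The second did not hold when any array was left out (0.0643 to 0.103) or when the mean of its 2 probe sets was used (adjusted p = 0.14). At an unadjusted p under 0.05, 2 enzymes were higher, and 2 rose with a variance trend. C1galt1, which makes the core on which these sugars are built, lay at 10.39 ± 0.03 and 10.42 ± 0.06.

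Opioid peptide genes other than Penk stayed dim. Of 15 genes of opioid precursors, receptors and receptor regulation 14 were tested, of which 0 rose, 2 fell and 12 did not pass. The share called was 14.3% against 6.72% of all genes, with a median of -0.06. No member was higher at an unadjusted p under 0.05 or rose with a variance trend. The other precursors lay under the dim limit in both groups: Pomc at 4.63 ± 0.16 and 4.48 ± 0.03, Pdyn at 4.60 ± 0.17 and 4.60 ± 0.09, and Pnoc at 4.98 ± 0.16 and 4.82 ± 0.15. So did the receptors of the enkephalins, Oprd1 for the delta receptor (5.06 ± 0.11 and 4.99 ± 0.18, adjusted p = 0.716) and Oprm1 for the mu receptor (4.89 ± 0.12 and 4.86 ± 0.10, adjusted p = 0.868). Ackr3, a scavenger receptor of opioid peptides, lay at 4.81 ± 0.09 and 4.76 ± 0.02 (adjusted p = 0.688). A dim signal on this platform does not show that a transcript is absent.

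The falls in that group were those of genes that switch off many receptors of this class. Grk3, a receptor kinase, lay at 6.785, 6.817 and 6.810 in WT and at 6.276, 6.092 and 6.342 in GPS2KO, a fall of 0.57 (SE 0.0648, adjusted p = 0.00249). The WT arrays nearly coincided, and the groups did not overlap. Arrb1, which encodes beta-arrestin 1, fell by 0.21 (adjusted p = 0.0261). It missed the threshold when any array was left out (adjusted p 0.0512 to 0.0868), and Grk3 was then the 1 fall. The paralog Arrb2 lay at 11.81 ± 0.02 and 11.79 ± 0.04. Grk2 was not analysed here.

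Of 18 genes of prohormone processing 16 were tested, of which 1 rose, 2 fell and 13 did not pass. Thus 18.8% were called against 6.72% of all genes, with a median of -0.04. Cpe, the carboxypeptidase that trims cut enkephalin precursors, fell from 8.711, 8.715 and 8.649 in WT to 8.368, 8.366 and 8.468 in GPS2KO, by 0.29 (SE 0.0451, adjusted p = 0.00911). The convertase gene Pcsk1 was dim, at 5.12 ± 0.06 and 4.93 ± 0.04, and did not pass (adjusted p = 0.0582), though it did after quantile normalization (0.0447) and median centring (0.0386). Pcsk2 and Pcsk7 were not analysed here. Ctsl, a cathepsin that can also cut proenkephalin, rose by 0.29 (12.69 ± 0.06 to 12.97 ± 0.04, adjusted p = 0.0114). Pam, which amidates peptide ends, fell by 0.23 (adjusted p = 0.0162), but not past the threshold without WT replicate 1 or 3 or GPS2KO replicate 1 or 3 (adjusted p up to 0.0679). The granule proteins Chga and Chgb stayed under the dim limit, at 5.21 ± 0.08 and 5.18 ± 0.14 and at 5.09 ± 0.06 and 5.16 ± 0.07.

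All 16 listed peptidases that can break down enkephalins or their fragments were tested: 2 rose, 0 fell and 14 did not pass. This is 12.5% called against 6.72% of all genes, with a median of -0.00. None was lower at an unadjusted p under 0.05 or fell with a variance trend. Anpep, which encodes aminopeptidase N, lay at 11.918, 11.964 and 11.898 in WT and at 12.143, 12.181 and 12.144 in GPS2KO, a rise of 0.23 (SE 0.0385, adjusted p = 0.0128) that did not pass without GPS2KO replicate 2 (adjusted p = 0.0561). Dpp7, a lysosomal dipeptidyl peptidase, rose by 0.18 (adjusted p = 0.0471), but did not pass when any array was left out (0.0848 to 0.133) or after median centring (0.0797). With 1 array left out the list thus had 1 rise, or 0 without GPS2KO replicate 2. Mme, which encodes neprilysin, the classical enkephalinase, lay at the dim limit, at 5.49 ± 0.06 and 5.46 ± 0.11 (adjusted p = 0.868).

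Of 17 other genes of MAM domain proteins 15 were tested, of which 2 rose, 0 fell and 13 did not pass. Their share called was 13.3% against 6.72% of all genes, and their median 0.01. At an unadjusted p under 0.05, 2 were lower, and 0 fell with a variance trend. Nrp1, a co-receptor of semaphorins and vascular growth factor, lay at 11.527, 11.493 and 11.508 in WT and at 11.762, 11.764 and 11.793 in GPS2KO, a rise of 0.26 (SE 0.036, adjusted p = 0.00544). The receptor phosphatase gene Ptprm rose by 0.18 (adjusted p = 0.0451), but missed the threshold when any array was left out (0.0625 to 0.147), after median centring (0.0686) and with a variance trend (0.0594). Mamdc4, the gene with the most similar name, stayed under the dim limit at 5.02 ± 0.03 and 5.06 ± 0.06.

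All 28 listed proteoglycan genes were tested, of which 3 rose, 3 fell and 22 did not pass. Thus 21.4% were called against 6.72% of all genes. The median was -0.08, and 21 of the 28 had lower means in GPS2KO. Cspg4, the proteoglycan NG2 of pericytes, was the largest change, from 8.431, 8.599 and 8.698 in WT to 7.713, 7.784 and 7.743 in GPS2KO, a fall of 0.83 (SE 0.068, adjusted p = 0.000592). Srgn, which encodes serglycin of granules, fell by 0.20 (adjusted p = 0.0245) and Sdc4, a syndecan, by 0.18 (adjusted p = 0.0401), and neither passed when any array was left out (up to 0.136). The rises were those of Prg4, a lubricant of joints (0.45, adjusted p = 0.0424), Esm1, a secreted proteoglycan of endothelium that stayed under the dim limit (0.30, adjusted p = 0.0173), and Dcn, the matrix proteoglycan decorin (0.30, adjusted p = 0.0334). Without WT replicate 1 or GPS2KO replicate 1 no rise passed, and without any 1 array Cspg4 was the single fall.

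Penk is a textbook target of cyclic AMP signalling, and 18 of 19 other cyclic AMP-responsive genes were tested. Of these, 2 rose, 2 fell and 14 did not pass (22.2% called against 6.72% of all genes, median 0.00). Fos, an AP-1 subunit, lay at 10.292, 10.235 and 10.386 in WT and at 9.997, 9.991 and 9.954 in GPS2KO, a fall of 0.32 (SE 0.0481, adjusted p = 0.00771), and Pde4b, which breaks down cyclic AMP, fell by 0.36 (adjusted p = 0.0131). Rgs2, a brake on G protein signalling, rose by 0.24 (adjusted p = 0.0143), as did Crem, a modulator of cyclic AMP-driven transcription (adjusted p = 0.0396). The orphan nuclear receptors Nr4a1 and Nr4a2 differed by 0.13 and 0.28 and did not pass (adjusted p = 0.316 and 0.163). The Pde4b call ended without WT replicate 1 or GPS2KO replicate 1 (adjusted p up to 0.0522), that of Rgs2 without WT replicate 1 or GPS2KO replicate 1 or 3 (up to 0.0563), and Crem kept its call when WT replicate 3 was left out but with no other array missing (up to 0.119). No rise was left without WT replicate 1 or GPS2KO replicate 1 or 3, and 1 was left without WT replicate 2 or GPS2KO replicate 2.

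Of 21 transcription factors that act on the Penk or Pdpn promoters, among them CREB and AP-1 proteins, 19 were tested. Crem rose, Fos fell and 17 did not pass (10.5% called against 6.72% of all genes, median -0.04). With a variance trend 3 rose and 2 fell. Creb1 itself lay at 9.98 ± 0.04 and 10.03 ± 0.02, Jun at 11.74 ± 0.02 and 11.88 ± 0.02 (adjusted p = 0.0675), and Prox1, the lymphatic factor that drives Pdpn there, under the dim limit at 4.53 ± 0.12 and 4.61 ± 0.14. Nfkb1 and Fosl1 were not analysed here.

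**Figure D2:**
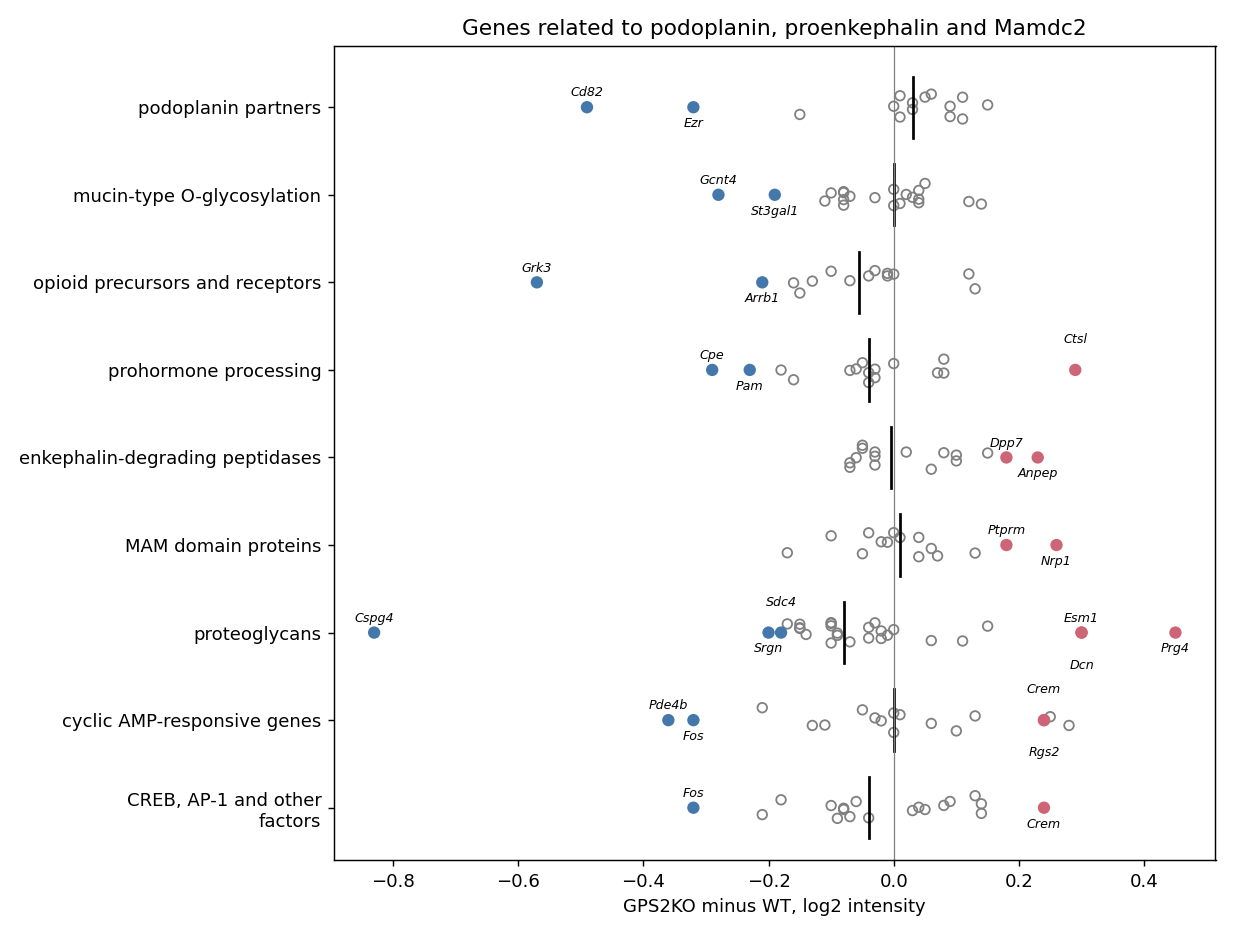
Difference between GPS2KO and WT in log2 intensity (x axis) of the tested genes of the 9 related groups (y axis), 1 point a gene, with the group's median as a black bar. Filled points passed limma's adjusted threshold (blue lower, red higher in GPS2KO) and open points did not. All lie between -0.83 (Cspg4) and 0.45 (Prg4).

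Of the 5 tested genes on each side of each of the 3 on their chromosomes, 30 in all, 1 rose and 1 fell, with a median difference of 0.01. These 2 of 30 are close to the 6.72% called among all genes. Smc5 and the gene 1700028P14Rik, the nearest tested genes to Mamdc2 (starts 96.2 and 256 kb away), differed by 0.11 and 0.07. Of the 10 neighbours of Mamdc2 1, Fam189a2, passed, with a fall of 0.63 (SE 0.0893, adjusted p = 0.00622) and its start 670 kb away. At an unadjusted p under 0.05, 2 other neighbours of Mamdc2 were higher, by at most 0.23. Among the 10 neighbours of Pdpn 0 passed in limma, 1 at an unadjusted p under 0.05 and 0 with a variance trend, while 1 fell when dim genes were left out. The nearest, Prdm2 and Lrrc38, differed by 0.04 and -0.02. The nearest tested genes to Penk, Sdr16c6 and Bpnt2 (starts 77.6 and 629 kb away), differed by -0.05 and -0.19 (adjusted p = 0.705 and 0.403). Fam110b, the second tested gene after Penk, with its start 1510 kb away, rose by 0.32 (SE 0.0458, adjusted p = 0.00675).

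**Figure D3:**
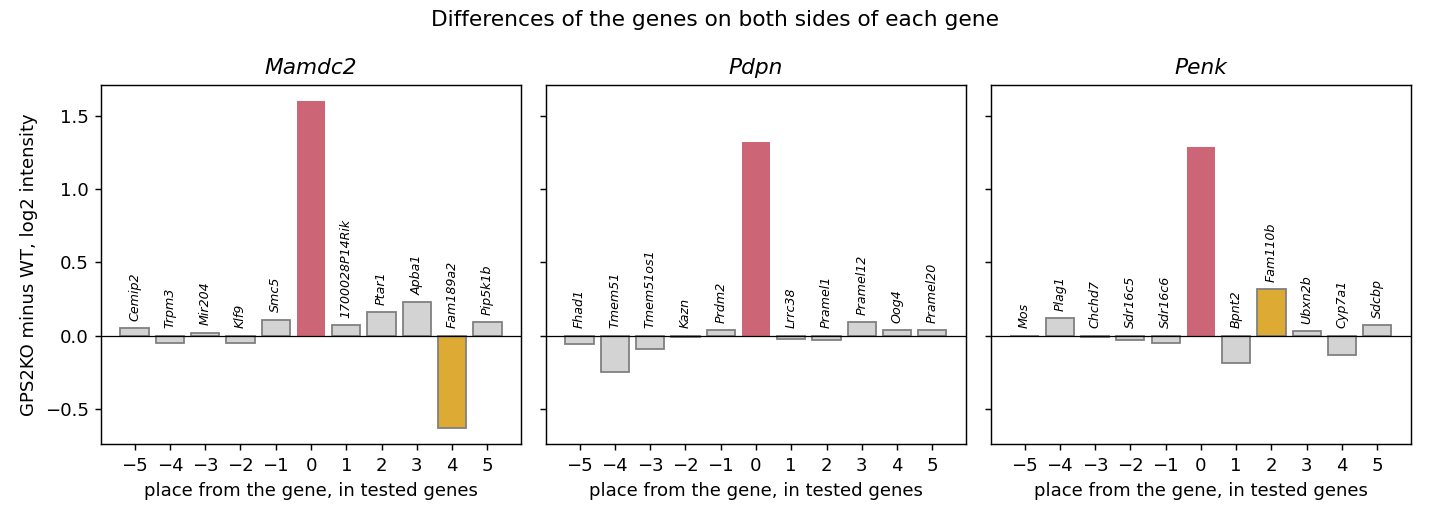
Difference between GPS2KO and WT in log2 intensity (y axis) of Mamdc2, Pdpn and Penk (red, place 0) and of the 5 tested genes on each side of each, in the order of their starts on the chromosome (x axis, in genes). Yellow bars passed limma's adjusted threshold and grey bars did not. Fam189a2 (-0.63) and Fam110b (0.32) are the 2 neighbours that passed, with starts 670 kb from Mamdc2 and 1510 kb from Penk. The bars are evenly spaced and do not show distance.

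Fibroblasts and other stromal cells can express Pdpn and Penk, and the mean levels of their 17 markers ran from 3.98 to 12.21, with 3 under the dim limit. Col1a1, a fibrillar collagen chain, lay at 11.919, 11.985 and 12.003 in WT and at 11.766, 11.766 and 11.764 in GPS2KO, a fall of 0.20 (adjusted p = 0.0225) that passed without WT replicate 1 but not without any other array (up to 0.0796), and Postn, the matrix protein periostin, at 12.24 ± 0.01 and 12.19 ± 0.02 (adjusted p = 0.473). All 17 fibroblast and stromal markers were tested: 1 rose, 5 fell and 11 did not pass. Their share called was 35.3% against 6.72% of all genes, and their median -0.12. Their mean log2 level ran from 8.33 to 8.36 over the WT arrays and from 8.25 to 8.29 over the GPS2KO arrays. Pdgfrb, a growth factor receptor of stromal cells, fell by 0.28 (adjusted p = 0.00675), Col6a1 by 0.25 (adjusted p = 0.00897), Thy1 by 0.30 (adjusted p = 0.0165) and Mfap5 by 0.36 (adjusted p = 0.0299), while Dcn rose. Thy1 did not pass without WT replicate 1 or 3 or GPS2KO replicate 1 (up to 0.0562), Mfap5 when WT replicate 3 or 1 of the GPS2KO arrays was left out (up to 0.0986), and Dcn without replicate 1 or 2 of either group (up to 0.115). After median centring, or without dim genes, 8 fell. Between 2 and 4 fell with 1 array left out, 2 of them without WT replicate 3 or GPS2KO replicate 1. Of the 17 markers, 11 had lower and 6 had higher means in GPS2KO. In these bulk samples fewer cells of a type and less RNA per cell cannot be told apart, and the part of stromal cells in the signal of the 3 genes was not tested.

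Podoplanin is also a marker of lymphatic endothelium and of bone cells. The defining lymphatic genes lay under the dim limit, with Prox1 as given, Lyve1 at 4.79 ± 0.06 and 4.71 ± 0.10 and Flt4 at 4.55 ± 0.18 and 4.63 ± 0.02. Of 12 tested endothelial markers, however, 3 rose and 0 fell (25% called against 6.72% of all genes, median 0.08). At an unadjusted p under 0.05, 0 were lower. Emcn, an endothelial sialomucin, lay at 7.078, 7.190 and 6.975 in WT and at 7.751, 7.625 and 7.543 in GPS2KO, a rise of 0.56 (adjusted p = 0.0041). Cdh5 rose by 0.35 (adjusted p = 0.0318) and Tie1 by 0.22 (adjusted p = 0.0349). Without WT replicate 1 or 3 or GPS2KO replicate 1 or 2, Emcn alone passed. Tie1 did not pass when any array was left out (0.0539 to 0.107), after quantile normalization (0.0584) or median centring (0.0529), or with a variance trend (0.0659). The mean log2 level of the endothelial list ran from 5.61 to 5.68 in WT and from 5.71 to 5.78 in GPS2KO.

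Of 10 tested markers of osteoblasts and osteocytes 2 rose, 1 fell and 7 did not pass (30% called against 6.72% of all genes). Their median difference was 0.00. Alpl, alkaline phosphatase, rose by 0.57 (SE 0.0447, adjusted p = 0.000482) and Sp7, an osteoblast transcription factor, by 0.41 (adjusted p = 0.00517), and Col1a1 was the fall. With 1 array left out both rises passed each time, and the fall only when that array was WT replicate 1. The markers of the osteocytes that carry podoplanin lay under the dim limit, with Dmp1 at 4.25 ± 0.13 and 4.19 ± 0.04 and Phex at 4.62 ± 0.09 and 4.61 ± 0.05. The mean log2 level of the list ran from 5.95 to 6.04 in WT and from 6.05 to 6.12 in GPS2KO. What share endothelial or bone cells have in the podoplanin signal was not tested.

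Penk is made by T cells, neurons and neuroendocrine cells as well. Of 10 tested T cell markers 3 rose, 0 fell and 7 did not pass (30% called against 6.72% of all genes, median 0.05). The same count of 3 rises was found without any 1 of the arrays. Il7r, the interleukin-7 receptor, lay at 10.943, 10.877 and 11.059 in WT and at 11.701, 11.762 and 11.622 in GPS2KO, a rise of 0.74 (SE 0.0596, adjusted p = 0.000558). Cd28 rose by 0.54 (adjusted p = 0.000411) and Cd4 by 0.43 (adjusted p = 0.00142). The defining chains of the T cell receptor complex lay under the dim limit and did not pass, with Cd3d at 4.39 ± 0.04 and 4.29 ± 0.10, Cd3e at 5.21 ± 0.12 and 5.18 ± 0.11 and Cd3g at 3.87 ± 0.08 and 3.79 ± 0.10. Of the 10 neuroendocrine markers 9 were dim and 0 passed in limma, with 0 at an unadjusted p under 0.05 and 0 with a variance trend. Syp, synaptophysin, had the smallest p (-0.17, adjusted p = 0.317).

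For the remaining cell types, 0 of 10 dendritic cell markers passed in limma, with 0 at an unadjusted p under 0.05 and 0 with a variance trend. However, 8 of these 10 were dim. Zbtb46, a transcription factor of dendritic cells, had the smallest p (-0.09, adjusted p = 0.432). Of 12 granulocyte and mast cell markers, 9 of them dim, 1 rose (8.33% called against 6.72% of all genes). This was the granule gene Ngp, by 0.46 (adjusted p = 0.0151). It missed the threshold without WT replicate 2 or 3 or GPS2KO replicate 1 or 2 (adjusted p up to 0.0617). Among 11 tested macrophage markers 3 rose, 0 fell and 8 did not pass (27.3% called against 6.72% of all genes, median 0.13). At an unadjusted p under 0.05, 0 were lower, and 5 rose with a variance trend. Of the 11, 0 were dim, and in the fit without dim genes 5 of them rose while 1962 of all 11292 genes passed. Mrc1, the mannose receptor, rose by 0.49 (adjusted p = 0.00121), Mertk, a receptor for apoptotic cells, by 0.24 (adjusted p = 0.00991) and Itgam by 0.19 (adjusted p = 0.0279), the last missing the threshold when any array was left out (0.0557 to 0.1). The mean log2 level of the macrophage list ran from 11.45 to 11.49 in WT and from 11.58 to 11.61 in GPS2KO.

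**Figure D4:**
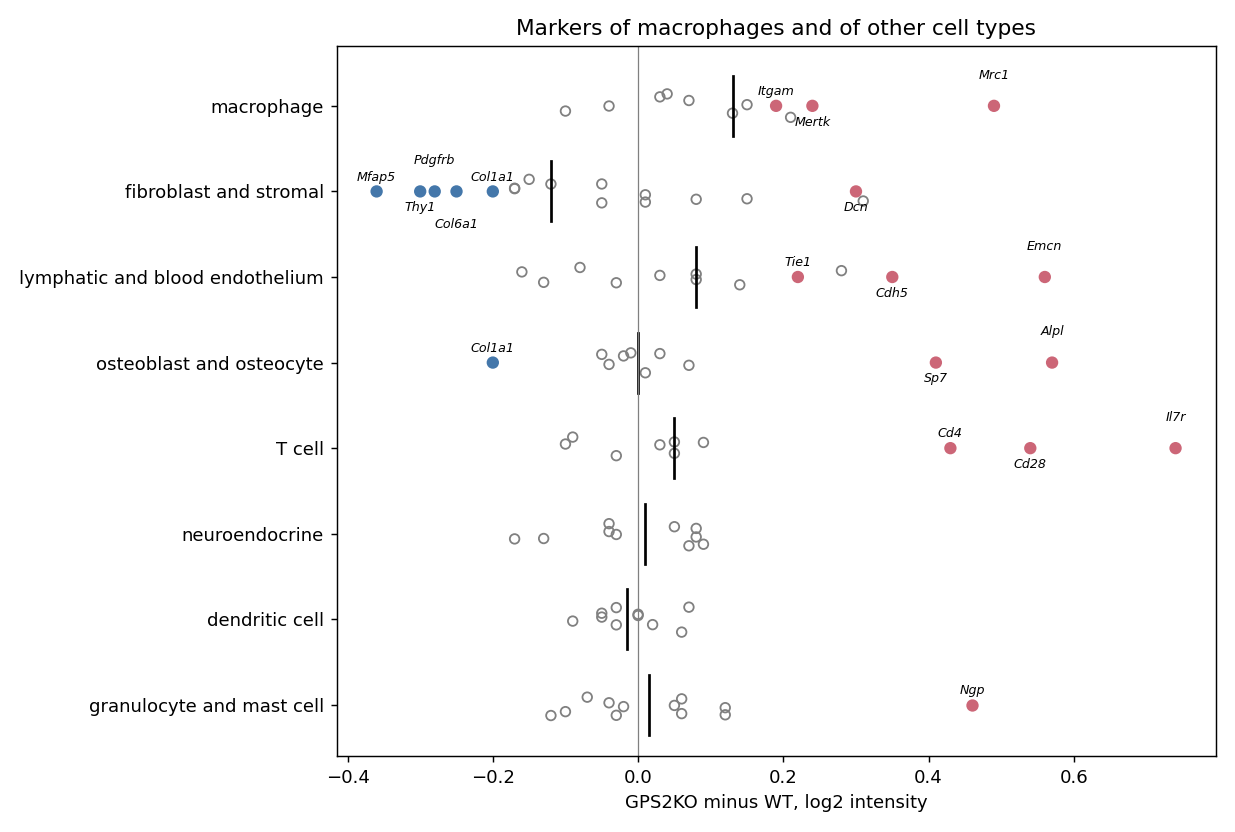
Difference between GPS2KO and WT in log2 intensity (x axis) of the tested markers of 8 cell types (y axis), 1 point a gene, with the median of each list as a black bar. Filled points passed limma's adjusted threshold (blue lower, red higher in GPS2KO). Of the fibroblast and stromal markers 5 fell and 1 rose, while the endothelial, T cell and macrophage lists each held 3 rises and no fall. Over all tested genes 6.72% passed, and 1962 of 11292 in the fit without dim genes. Whether any list stands apart was not tested.

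Likeness of profile was measured as the root mean square difference over the 6 arrays, after subtracting each gene's own WT mean, so it describes the size and the scatter of a change together and rests on 3 arrays a group. The profile nearest to Mamdc2 was that of Ccl7, a monocyte chemokine (0.103), followed by the chemokine Ccl6 (0.159), the receptor gene Tnfrsf26 (0.178), Pdpn (0.219) and the orphan receptor gene Mrgpre (0.245). Nearest to Pdpn were Mrgpre (0.055), Ccl6 (0.0929), Tnfrsf26 (0.0943), the lipid carrier gene Fabp4 (0.118) and the serotonin receptor gene Htr2b (0.146). Mrgpre lay at 6.627, 6.566 and 6.808 in WT and at 7.977, 7.928 and 7.927 in GPS2KO, and like Pdpn it had its highest WT array in replicate 3 and close GPS2KO arrays. Nearest to Penk were Tnfrsf26 (0.148), Pdpn (0.165), Htr2b (0.182), Mrgpre (0.191) and the membrane protein gene Tmem154 (0.207).

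The 3 genes were not one another's nearest profiles throughout. Pdpn was 2nd nearest to Penk and 4th nearest to Mamdc2, but Penk was 8th nearest to Pdpn and Mamdc2 11th. The distance between Mamdc2 and Penk was 0.26, the widest of the 3 pairs, against 0.219 between Mamdc2 and Pdpn and 0.165 between Pdpn and Penk. Only genes with a large difference can lie near by this measure.

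**Figure D5:**
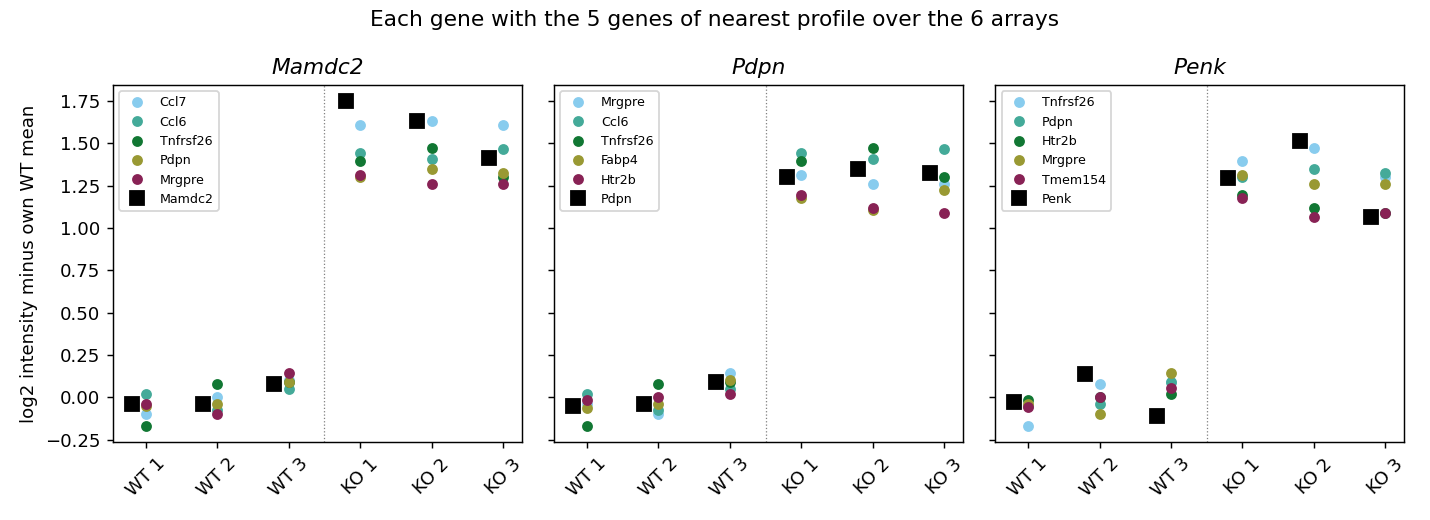
Log2 intensity minus the gene's own WT mean (y axis) on each of the 6 arrays (x axis, KO for GPS2KO), for Mamdc2, Pdpn and Penk (black squares) and the 5 genes of nearest profile (coloured points). Penk is at 1.51 on GPS2KO replicate 2 and at 1.07 on replicate 3, while Pdpn stays between 1.30 and 1.35.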

How the data were processed

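The authors deposited 1 log2 intensity per probe set and array, made with RMA in the R package oligo per the submitters' processing notes (versions and array build: not given in the sources used here). Values of 2.42 to 13.99 fit a log2 scale. RMA equalises the arrays, which hides a shift common to most genes. Of 35556 probe sets, 21218 had 1 symbol in GEO's platform annotation, 1881 had several and 12457 were not listed; 21185 matched RefSeq (GRCm38.p6) by gene number. The probe set with the highest mean stood for each of 18820 genes, 1386 of which had several.

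Genes were compared with limma 3.58.1 in R 4.3.3 (lmFit, eBayes, group as the only term, 2-sided, Benjamini-Hochberg over all genes, threshold 0.05), a calculation tested on simulated data. Changes are GPS2KO minus WT, with limma's SE. Groups came from the sample titles. The labels name no scan date or slide. Precision is limited by having 3 arrays a group.

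The 3 genes and 17 gene lists (260 symbols, 244 tested) were chosen with earlier results of these data known. Genes named were the 3 genes, Gps2, 10 set partners of podoplanin and enkephalins (Pcsk2 not analysed here), up to 4 members of each list with the smallest p among those that passed or otherwise 1, the neighbours that passed or were nearest, and the 5 nearest profiles. Msn, Rdx, C1galt1, Pomc, Pdyn, Pnoc, Arrb2, Chga, Chgb, Mamdc4, Prg4, Sdc4, Nr4a1, Nr4a2, Creb1, Jun, Prox1, Adgre1, Csf1r, Postn, Mfap5, Lyve1, Flt4, Dmp1, Phex, Cd3d, Cd3e and Cd3g were named after their values were seen. Alternatives were quantile normalization, median centring, a variance trend, no dim genes, the mean of a gene's probe sets, the replicate number as a block and leaving out each array.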

Additional observations from a re-analysis of the deposited data

How the results depend on the processing

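The differences of Mamdc2, Pdpn and Penk ran from 1.52 to 1.69, from 1.30 to 1.37 and from 1.18 to 1.40 with 1 array left out. Quantile normalization gave 1.61, 1.32 and 1.28, and median centring 1.57, 1.30 and 1.27. The mean of probe sets and the replicate block could not change them, as each gene had 1 probe set and the replicate numbers are balanced. These genes were chosen on this contrast, so the values are a description and no test. With 1 array left out Gps2 ran from -0.78 to -0.72. Over all genes, 926 rose and 1248 fell with a variance trend, 1154 fell without dim genes, and leaving out 1 array left 322 to 376 rises and 419 to 503 falls. Of 159 distinct genes of the related lists, 10 rose and 13 fell, against 16 rises with a variance trend, and 3 to 7 rises and 6 to 8 falls with 1 array left out. Of 91 distinct markers 13 rose and 5 fell, against 8 falls after median centring or without dim genes, and 8 to 12 rises and 2 to 4 falls with 1 array left out. Among the neighbours 2 fell without dim genes. The cause of these shifts was not tested. All arrays and genes entered with a variance trend and after median centring, and fewer entered where arrays or dim genes were left out. With the replicate number as a block, 5 rises and 8 falls of the related lists and 3 falls of the markers passed, and 370 genes rose and 492 fell in all. With this block, St3gal1, Arrb1, Pam, Dpp7, Ptprm, Srgn and Dcn lost their calls (adjusted p up to 0.108). So did Rgs2, Crem, Itgam, Thy1, Col1a1, Cdh5 and Tie1. The numbers were not taken to pair the samples, as the labels do not say that they do. Deviations of same-numbered WT and GPS2KO arrays from their group means correlated across genes at 0.003, 0.026 and -0.006. With 3 arrays a group this cannot exclude a pairing.

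Of 40 genes that passed and were named by the stated rule, 19 lost their call without at least 1 array. Signs turned only for genes that did not pass: Clec1b was at -0.01 after quantile normalization and -0.02 after median centring. With 1 array left out it ran from -0.14 to 0.13, Oprd1 from -0.13 to 0.03, Oprm1 from -0.10 to 0.02, Ackr3 from -0.08 to 0.00, Mme from -0.07 to 0.04, Lrrc38 from -0.13 to 0.07 and Sdr16c6 from -0.08 to 0.00. Low signals over background limit what can be said of Penk in WT and of the opioid receptors.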
